A study of Homo sapiens with 9 samples.

Results

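The genes described here are 47 genes of mitosis and of the passage from G2 into mitosis, chosen by symbol from a list of mitotic kinases and of kinetochore, spindle, anaphase and cytokinesis genes. All 47 were found among the 60880 gene IDs of the count files, and all 47 had enough counts to be tested in each comparison. The files hold 9 poly-A RNA-seq libraries of SNU5, an established human gastric carcinoma cell line, with 3 libraries in each of 3 groups. The NR group (AuNR-PEG-Ab) received ramucirumab, a monoclonal antibody against VEGFR2, carried on gold nanorods coated with polyethylene glycol. The SP group (AuSP-PEG-Ab) received the same antibody on gold nanospheres with the same coating, and the Ab group received the antibody alone. The labels and the study's supplement name this control as Ab, while its main text speaks of an untreated group in these comparisons. All cells were exposed for 24 h to 8 μg/mL of antibody, so the added amount of antibody is common to every group. The amount taken up need not be. At a lower dose and a shorter time, the study measured more antibody fluorescence in SNU5 cells with either particle than with free antibody. Gold, coating and antibody uptake thus cannot be told apart in the comparisons against Ab. Cells without antibody, with bare particles or with antibody on the coating alone were not analysed here. SNU5 is 1 cell line. The study describes the libraries of a group as biological replications, the labels do not tie them to separate cultures, and the p-values measure the spread between these libraries.

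A dividing cell prepares for mitosis by building up cyclin B and its partner kinase CDK1 during G2. WEE1 and PKMYT1 hold this kinase inactive by phosphorylation, and the CDC25 phosphatases release it. In mitosis the kinetochores attach chromosomes to spindle microtubules, and the spindle checkpoint delays anaphase until all are attached. CDC20 with the anaphase-promoting complex (APC/C) then marks cyclin B and securin for destruction, and the central spindle and the contractile ring divide the cell. Most of these genes are transcribed in late S phase, G2 and M under the MuvB complex with MYBL2 and FOXM1, and they are kept low in resting cells by the DREAM complex, so their mRNA in a culture is known to move with the share of cycling cells. In bulk RNA such as this, more cells in G2 and M and more of these mRNAs per cell cannot be told apart.

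Libraries 1, 2 and 3 held 25735410, 13863155 and 15943980 counts in the NR group, 21682836, 22914759 and 20601906 counts in the SP group and 19566064, 26318227 and 21031024 counts in the Ab group. Values are given as CPM, the usual scaling of counts to the library total, here with TMM factors (edgeR's correction for differences in library composition), and levels are compared between genes only as RPKM, CPM per kilobase of exon. A count of 3, the upper limit that a count of 0 allows, was 0.114 to 0.216 CPM depending on the library. A gene is said to have passed when the adjusted p of edgeR's quasi-likelihood test was at most 0.05, and called when it also changed at least 2-fold. "Rose" and "fell" are used of genes that passed. The share of exon bases that other annotated genes overlap was highest for NUSAP1 (86.8%), PRC1 (61.9%), PKMYT1 (31.9%), FOXM1 (15.9%) and PLK1 (12.8%), whose counts are less certain than those of the other genes.

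Ab library 1 stood apart from the other 2 Ab libraries for a part of the 47 genes. In the plot of Ab library 1 against transcript length, 11 genes lay more than 0.3 below the mean of Ab libraries 2 and 3 on the log2 scale, which is 23.4% of the 47 genes and 10.7% of all genes. They were CENPF, CENPE, DLGAP5, ASPM, TOP2A, TTK, NDC80, NUF2, KIF11, ANLN and KIF23. Their longest transcripts had a median of 4731 bases and 39.6% GC, against 2985 bases and 48.2% for the 36 others, but NUF2 (1964 bases), NDC80 (2126 bases) and DLGAP5 (2954 bases) are not long, though also of low GC content (38.8%, 39.6% and 38.2%), and WEE1 (5187 bases, 37.9% GC, ratio 0.12) and BUB3 (7703 bases, 41.1% GC, ratio -0.016) were not low. CENPF, a kinetochore protein of cycling cells, was furthest at -0.69, followed by the kinetochore motor CENPE at -0.64. NR library 1 lay higher than NR libraries 2 and 3 for some of the same genes, with CENPE at 0.71 and CENPF at 0.34. It also differed in 5 genes outside the 47, PDGFRA, KIT, COL1A2, RET and an unnamed gene, which had 37 to 167 counts in NR library 1 and in every SP and Ab library at least 33, but at most 1 in NR libraries 2 and 3. The part of these libraries in each result was tested only by leaving each one out. Those fits are given for the genes of the 47 where they changed a sign or whether the gene passed, and not for every change in size.

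**Figure D1:**
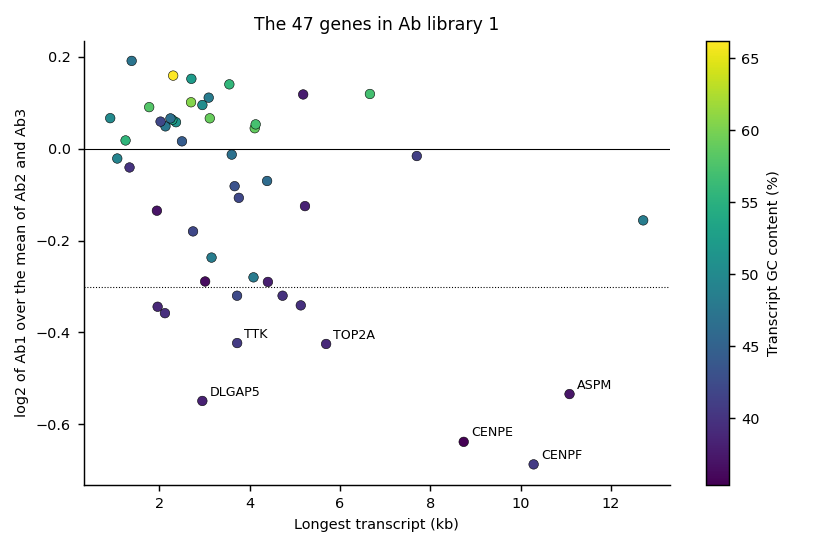
Log2 ratio of Ab library 1 to the mean of Ab libraries 2 and 3 (vertical axis) against the length of the longest transcript in kilobases (horizontal axis) for the 47 genes, coloured by transcript GC content. The dotted line marks -0.3, and the 11 genes below it include CENPF at -0.69 and CENPE at -0.64.

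The identity of the cells was checked with markers. KRT8 and KRT18, keratins of simple epithelium, and CLDN4, a tight junction protein, were clearly present, with 643 to 2022, 198 to 328 and 42.2 to 51.7 CPM over the 9 libraries. KRT19 and ESRP1 had at most 1 count in any library, CDH1 (E-cadherin) had 5.49 to 7.204 CPM in NR and SP and 0.192 to 0.436 CPM in Ab, and GRHL2 had no count in Ab. Of the epithelial markers 4 of the 5 tested passed as higher in both particle groups, and summed over all 8 the level was 2239 to 2389 CPM in NR and SP and 888 to 953 CPM in Ab, with KRT8 the most abundant. The defining leukocyte markers PTPRC, CD3E, MS4A1 and LYZ were at or near 0 in all libraries, and the summed leukocyte level was 3.06 to 5.95 CPM in NR and SP and 0.533 to 1.35 CPM in Ab, with CSF1R the most abundant in NR and SP and CD14 in Ab. CSF1R was the marker of this list that passed as higher in both particle groups, of 2 tested in NR and 1 in SP, and CD14 passed as lower in NR. The fibroblast markers DCN, LUM and PDGFRB passed as higher in both particle groups, 3 of the 7 tested, and the summed fibroblast level was 105 to 121 CPM in NR and SP and 20.2 to 49.3 CPM in Ab, with LUM or COL1A1 the most abundant. THY1 had at most 1 count. Of the endothelial markers, CDH5, VWF and EGFL7 passed as higher in both, 3 of the 4 tested, TEK, TIE1 and CLDN5 were at or near 0, and the summed level was 85.4 to 93.8 CPM in NR and SP and 56.2 to 64.1 CPM in Ab, with EGFL7 or ESAM the most abundant. Of the gastric markers, TFF1 and TFF2 were at or near 0, MUC1 was the most abundant in NR and SP and passed as higher, with GKN1 and PGC, while MUC5AC, the most abundant in Ab, and MUC6 passed as lower, and the summed level was 196 to 243 CPM in NR and SP and 158 to 172 CPM in Ab. The share of mitochondrial counts was also higher in NR and SP, at 4.36% to 4.66%, than in Ab, at 3.41% to 3.71%. These levels moved together with the comparisons against Ab below, and their part in those results was not tested.

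Mitosis and G2/M genes as a group took a larger part of the RNA in both particle groups than with the antibody alone. Their summed level was 6389, 6319 and 6448 CPM in NR libraries 1, 2 and 3, 6432, 6465 and 6449 CPM in SP and 4585, 4866 and 4989 CPM in Ab. All 6 particle libraries lay above all 3 Ab libraries, and NR and SP overlapped. The means were 6385 ± 64.6 CPM in NR, 6449 ± 16.5 CPM in SP and 4813 ± 207 CPM in Ab (SD, n = 3). As a share of all counts, the 47 genes took 0.635% to 0.654% in NR and SP and 0.450% to 0.489% in Ab.

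Against Ab, 29 of the 47 genes rose in NR, 4 fell and 14 did not pass, beside 36.4% of all 15009 genes tested that rose and 36.4% that fell. In SP against Ab, 29 rose, 5 fell and 13 did not pass, beside 36.4% of all 15068 genes that rose and 36.6% that fell. The 29 genes are 61.7% of the 47 in each comparison, and those that fell are 8.51% in NR and 10.6% in SP. The median log2 fold change of the 47 genes was 0.36 in NR and 0.39 in SP, beside -0.0055 and -0.0067 over all genes tested. With the 2-fold minimum, 5 genes were called higher in NR (10.6% of the 47, beside 12.4% of all genes) and 6 in SP (12.8%, beside 12.6%), so the share of large changes was near that of all genes. No gene of the 47 was called lower in either, beside 10.3% of all genes in NR and 10.6% in SP. Without Ab library 1 the counts were 30 higher and 6 lower in NR and 29 and 7 in SP, and without NR library 1 they were 27 and 4 in NR. With the trend with GC content and transcript length removed, a setting chosen after the data were seen, 29 rose and 9 fell in NR, and 27 rose and 9 fell in SP. Since the 3 Ab libraries serve in both comparisons, their values are set side by side and are not 2 independent results. Where a gene passed in NR or in SP but not in both, the direct test of NR against SP, given further on, did not pass.

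**Figure D2:**
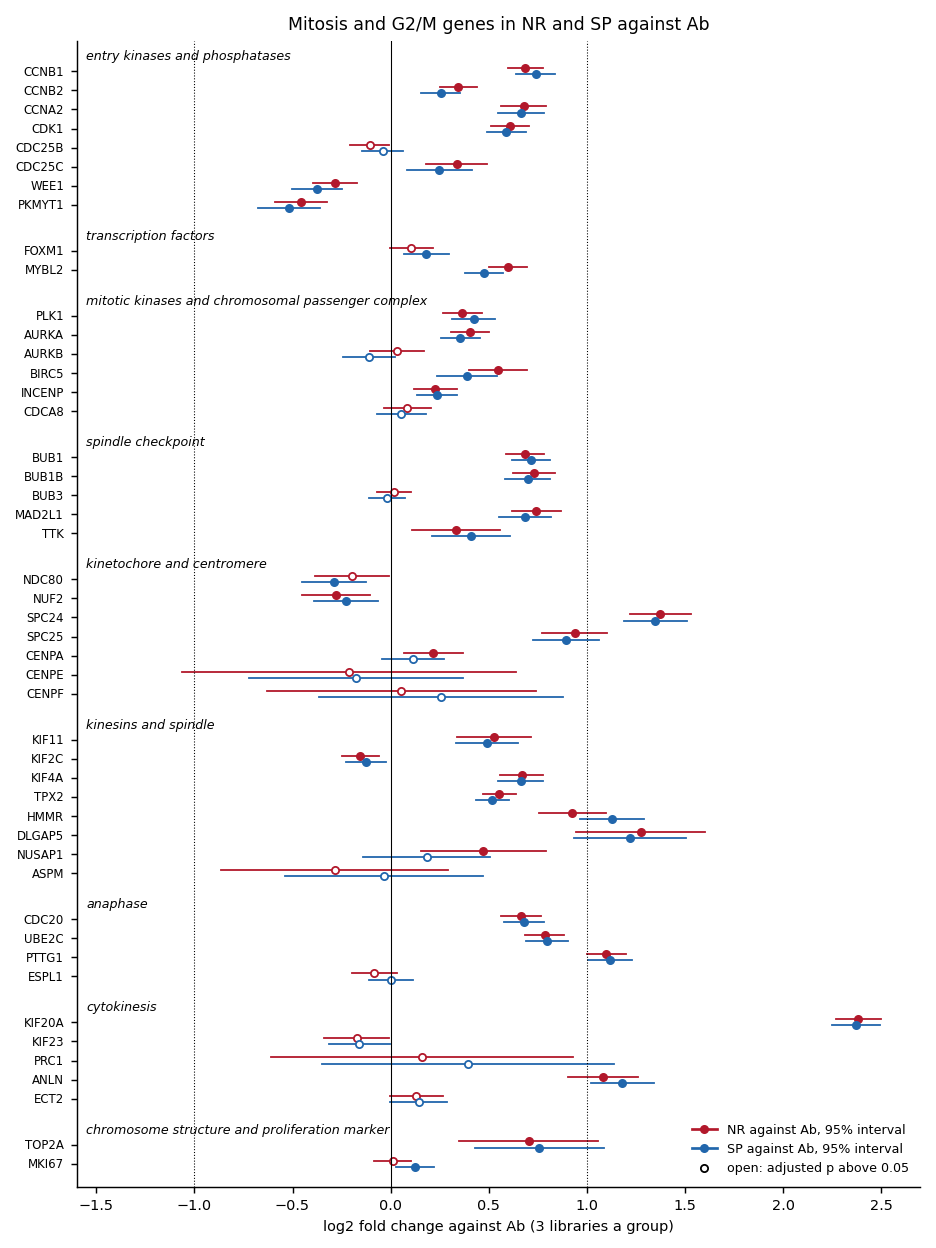
Log2 fold change against Ab (horizontal axis) of the 47 genes by role, in NR (red) and SP (blue), with 95% intervals from edgeR over 3 libraries a group. Filled points passed an adjusted p of 0.05, dotted lines mark 2-fold, and KIF20A lies furthest right at 2.38 in NR and 2.37 in SP.

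KIF20A, the kinesin that carries the chromosomal passenger complex to the central spindle at anaphase, had the largest rise of all 47 genes. It had 167, 166 and 172 CPM in NR libraries 1, 2 and 3, 162, 170.3 and 166 CPM in SP and 34, 32.7 and 30.2 CPM in Ab. All 6 particle libraries lay far above the 3 Ab libraries. Its log2 fold change was 2.38 (SE 0.055) in NR and 2.37 (SE 0.059) in SP against Ab (edgeR, adjusted p = 4.69e-24 and 6.61e-23), about 5.22-fold and 5.17-fold. KIF20A lies on chromosome 5, 137514408 to 137523412, plus strand (GRCh37). Its levels in RPKM were 43.7, 43.2 and 8.39 in NR, SP and Ab. It thus lay below the median of the 47 genes in Ab, which was 18.3 RPKM, and above those of 22.4 RPKM in NR and SP.

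The 4 other genes called in both comparisons were SPC24, DLGAP5, ANLN and PTTG1. SPC24, a subunit of the NDC80 complex that holds microtubules at the kinetochore, had 36.9, 38.1 and 39.6 CPM in NR, 39.7, 36.8 and 35.5 CPM in SP and 15.2, 14.1 and 15.03 CPM in Ab. PTTG1, the securin that restrains separase until anaphase, had 177, 166 and 164 CPM in NR, 178, 157 and 177 CPM in SP and 78.3, 78.6 and 80.3 CPM in Ab. For both genes the 6 particle libraries lay above the Ab libraries and the 3 Ab libraries lay close together. The log2 fold change of SPC24 was 1.37 (SE 0.076) in NR and 1.35 (SE 0.079) in SP against Ab (edgeR, adjusted p = 1.8e-15 and 9.13e-15). That of PTTG1 was 1.10 (SE 0.049) in NR and 1.12 (SE 0.055) in SP against Ab (edgeR, adjusted p = 1.08e-17 and 1.75e-16).

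DLGAP5, a spindle protein that stabilises kinetochore fibres, had 68.2, 64.4 and 63.6 CPM in NR, 61.9, 64.5 and 61.8 CPM in SP and 20.6, 30.2 and 30.1 CPM in Ab. ANLN, the scaffold protein of the contractile ring, had 359.8, 349.6 and 356 CPM in NR, 374, 379.5 and 385 CPM in SP and 144, 176 and 184 CPM in Ab. Ab library 1 was the lowest library for both genes, and no particle library overlapped with Ab. The log2 fold change of DLGAP5 was 1.27 (SE 0.14) in NR and 1.22 (SE 0.12) in SP against Ab (edgeR, adjusted p = 9.82e-05 and 1.8e-05), and without Ab library 1 it was 1.12 in NR and 1.06 in SP. That of ANLN was 1.08 (SE 0.079) in NR and 1.18 (SE 0.073) in SP against Ab (edgeR, adjusted p = 7.67e-07 and 1.23e-08), and without Ab library 1 it was 0.98 in NR, below the 2-fold minimum, and 1.08 in SP. HMMR, a spindle assembly protein, was called in SP alone, with log2 fold changes of 0.93 in NR and 1.13 in SP, and its direct comparison between NR and SP is given below.

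**Figure D3:**
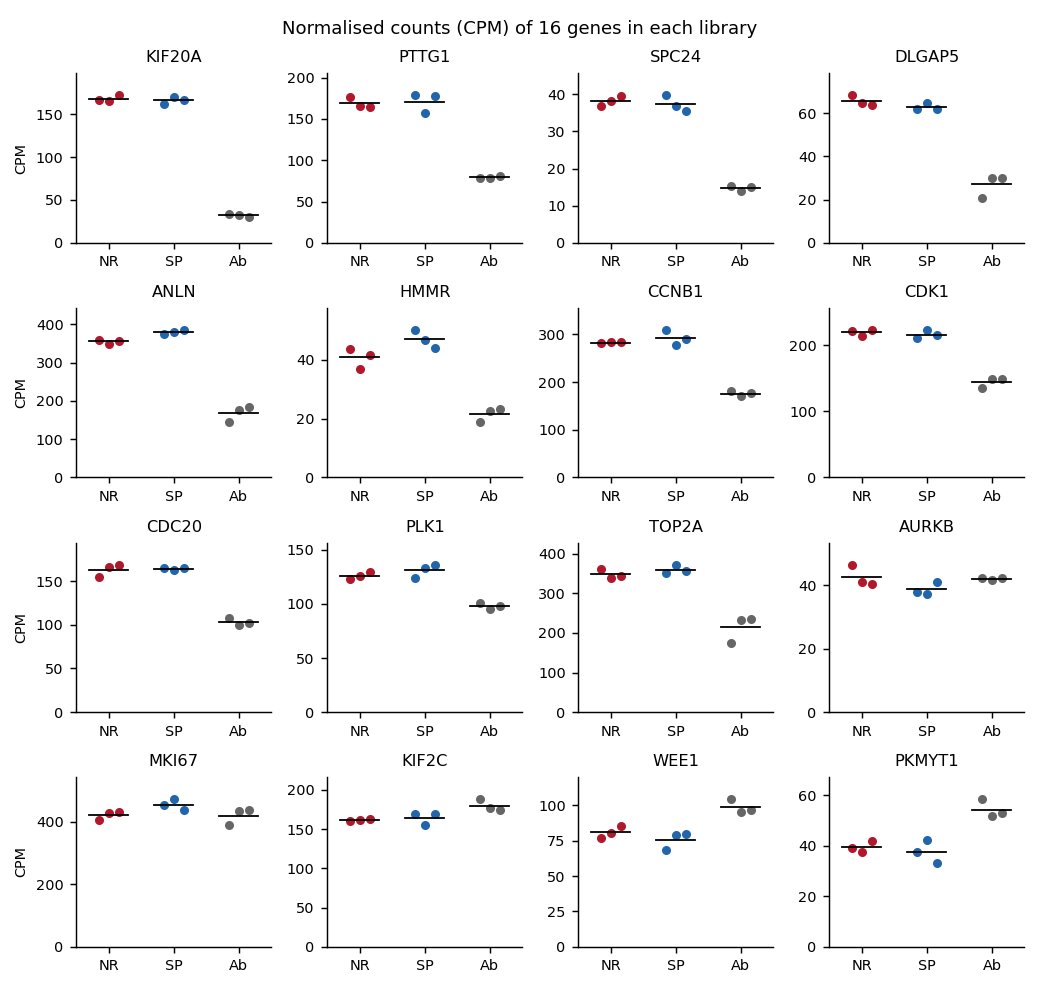
CPM of 16 genes in each of the 9 libraries (points, libraries 1 to 3 from left to right in each group) with the group mean (line), each on its own axis from 0. KIF20A, PTTG1, SPC24, DLGAP5, ANLN, HMMR, CCNB1, CDK1, CDC20, PLK1 and TOP2A have no Ab library at or above a particle library, while AURKB and MKI67 overlap between NR and Ab.

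Since many of these genes rose together, their promoters were searched for the letters of 2 elements known from cell cycle genes, the CHR element bound by MuvB and the CCAAT box bound by NF-Y. CHR letters were taken as TTTGAA or as the variant spelled TTCGAA, which reads the same on both strands. No other spelling of the element was searched. A gene said to have no CHR letters lacks these 2 spellings and may still hold another form. The sequences are from RefSeq (GRCh38.p14), 250 bases before to 50 bases after each start site, searched on both strands. Windows were found for 38 of the 47 genes, 48 windows in all, and not for AURKA, BIRC5, BUB3, FOXM1, PKMYT1, TPX2, TTK, UBE2C and WEE1. CHR letters stood in 32 of the 48 windows (66.7%), beside 16.4% of all 35116 windows of this length. CCAAT boxes stood in 36 of the 48 (75%), beside 34.6% of all, and both kinds stood in 27 (56.2%), beside 6.38%. The last letters of a CHR can also be the first of a CCAAT box on the other strand. Of the 29 genes with CHR letters in a window, 18 rose and 1 fell in NR against Ab, and of the 9 genes with windows but no CHR letters, 6 rose and 1 fell. Of these 9, AURKB, CCNA2, CCNB1, KIF20A, PTTG1 and SPC24 hold a CCAAT box, and CENPE, KIF2C and MYBL2 hold neither kind. In SP these were 17 and 2 of the 29, and 6 and 1 of the 9. The median log2 fold change of the 29 was 0.345 in NR and 0.256 in SP, below the 0.679 and 0.662 of the 9. MYBL2 rose with neither kind, and NUF2 fell with CHR letters in its window. These matches are descriptions of the letters and not bound sites.

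The 110 bases before the start site are shown for the gene with the largest rise, for 3 genes that rose with both kinds of element in their window, and for KIF2C, which fell and has neither, with CHR letters and CCAAT boxes on either strand in capitals.
KIF20A (chr5:138179002-138179111, plus strand): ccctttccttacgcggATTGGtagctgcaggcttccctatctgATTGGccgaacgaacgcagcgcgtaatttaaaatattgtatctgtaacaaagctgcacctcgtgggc
DLGAP5 (chr14:55191586-55191695, minus strand): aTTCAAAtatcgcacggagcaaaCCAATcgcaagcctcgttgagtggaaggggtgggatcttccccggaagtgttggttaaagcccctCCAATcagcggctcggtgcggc
CDC20 (chr1:43358871-43358980, plus strand): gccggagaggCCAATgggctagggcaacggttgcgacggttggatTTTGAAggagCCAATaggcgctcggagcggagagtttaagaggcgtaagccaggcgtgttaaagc
PLK1 (chr16:23678779-23678888, plus strand): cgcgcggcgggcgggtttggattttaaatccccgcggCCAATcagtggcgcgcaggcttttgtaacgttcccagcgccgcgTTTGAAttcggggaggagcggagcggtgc
KIF2C (chr1:44739727-44739836, plus strand): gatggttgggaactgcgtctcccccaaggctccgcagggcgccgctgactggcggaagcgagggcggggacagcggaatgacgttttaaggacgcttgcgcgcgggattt

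KIF20A thus holds 2 CCAAT boxes on the minus strand and neither of the 2 CHR spellings searched. CDC20 holds CHR letters between 2 CCAAT boxes. PLK1 holds a CCAAT box with CHR letters further downstream, and KIF2C holds neither. DLGAP5 and CDC20 rose by 1.27 and 1.22 and by 0.67 and 0.68 on the log2 scale in NR and SP, and PLK1 by 0.36 and 0.42.

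Of the 8 kinases, cyclins and phosphatases of mitotic entry, 5 rose, 2 fell and 1 did not pass in each comparison. CCNB1, cyclin B1, had 281, 283 and 284 CPM in NR, 309, 278 and 289 CPM in SP and 181, 171 and 176 CPM in Ab. CDK1, its kinase, had 223, 214 and 223 CPM in NR, 211, 223 and 216 CPM in SP and 136, 149 and 149 CPM in Ab. For both genes every particle library lay above every Ab library, and NR and SP overlapped. The log2 fold change of CCNB1 was 0.69 (SE 0.043) in NR and 0.74 (SE 0.048) in SP against Ab (edgeR, adjusted p = 3.32e-14 and 9.63e-14), and that of CDK1 was 0.61 (SE 0.048) in NR and 0.59 (SE 0.049) in SP against Ab (edgeR, adjusted p = 3.7e-12 and 1.94e-11). CCNA2, the cyclin of S phase and G2, rose by 0.68 in NR and 0.66 in SP, CCNB2 (cyclin B2) by 0.35 in NR and 0.25 in SP and the phosphatase CDC25C by 0.34 in NR and 0.25 in SP. CDC25B, a phosphatase that acts early in entry, did not pass although its NR libraries all lay below those of Ab, with -0.11 in NR and -0.040 in SP (adjusted p = 0.0502 and 0.491 with edgeR).

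The 2 genes of entry that fell were the 2 kinases that inhibit CDK1. WEE1, the nuclear one, had 76.8, 80.7 and 85.7 CPM in NR, 68.5, 79 and 79.6 CPM in SP and 104.2, 95.1 and 96.95 CPM in Ab. PKMYT1, the membrane-bound one, had 39.04, 37.5 and 41.9 CPM in NR, 37.7, 42.2 and 33.2 CPM in SP and 58.4, 51.8 and 52.9 CPM in Ab. All particle libraries lay below all Ab libraries for both. The log2 fold change of WEE1 was -0.28 (SE 0.055) in NR and -0.37 (SE 0.062) in SP against Ab (edgeR, adjusted p = 4.31e-05 and 4.73e-06). That of PKMYT1 was -0.46 (SE 0.066) in NR and -0.52 (SE 0.076) in SP against Ab (edgeR, adjusted p = 4.9e-07 and 1.86e-06). Other annotated genes overlap 31.9% of the exon bases of PKMYT1, and the use of strand in the counting is not stated, so its counts are uncertain.

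Of the 2 transcription factors, MYBL2 (B-Myb), which joins the MuvB complex to switch these genes on, rose in both groups. It had 278, 300 and 294 CPM in NR, 266, 259.7 and 274 CPM in SP and 202, 184 and 192 CPM in Ab. The libraries fell into 3 levels with no overlap, NR above SP and SP above Ab. Its log2 fold change was 0.60 (SE 0.047) in NR and 0.48 (SE 0.047) in SP against Ab (edgeR, adjusted p = 3.24e-12 and 5.65e-10). FOXM1, which acts after it in G2, rose in SP and not in NR, with 0.11 in NR and 0.18 in SP (adjusted p = 0.0733 and 0.00505 with edgeR), and NR libraries overlapped with Ab.

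Among the 6 mitotic kinases and subunits of the chromosomal passenger complex, 4 rose and none fell in each comparison. PLK1, the kinase of centrosome maturation and mitotic entry, had 123, 126 and 129.8 CPM in NR, 124, 133 and 136 CPM in SP and 101, 95.7 and 98.4 CPM in Ab. Its 6 particle libraries lay above the 3 Ab libraries, and its log2 fold change was 0.36 (SE 0.048) in NR and 0.42 (SE 0.053) in SP against Ab (edgeR, adjusted p = 1.33e-07 and 4.61e-08). AURKA, the kinase of spindle poles, rose by 0.41 in NR and 0.35 in SP, INCENP, the scaffold of the passenger complex, by 0.23 in NR and 0.24 in SP, and BIRC5 (survivin), a subunit of the same complex, by 0.55 in NR and 0.39 in SP. AURKB, the kinase of that complex, had 46.5, 41.2 and 40.4 CPM in NR, 37.96, 37.3 and 41.2 CPM in SP and 42.4, 41.6 and 42.2 CPM in Ab. Its NR and Ab libraries overlapped and its SP libraries lay just below those of Ab, and against Ab it had log2 fold changes of 0.033 in NR and -0.11 in SP, neither past the test (edgeR, adjusted p = 0.666 and 0.132). CDCA8 (borealin), the remaining subunit, had 0.086 in NR and 0.055 in SP and did not pass. Thus 2 of the 4 measured subunits of the passenger complex rose and the 2 others, its kinase among them, did not pass.

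Of the 5 spindle checkpoint genes, 4 rose in each comparison. The checkpoint kinase BUB1 rose by 0.69 in NR and 0.71 in SP, the CDC20 inhibitor BUB1B (BUBR1) by 0.73 in NR and 0.70 in SP, MAD2L1 (MAD2), which is also part of that inhibitor, by 0.74 in NR and 0.69 in SP, and the kinase TTK (MPS1) by 0.33 in NR and 0.41 in SP. BUB1 had 218, 231 and 234 CPM in NR, 236, 230.5 and 226 CPM in SP and 134, 143 and 146 CPM in Ab. BUB3, their binding partner, had 219, 219 and 227 CPM in NR, 208, 218 and 221 CPM in SP and 218, 222 and 219 CPM in Ab, with log2 fold changes of 0.017 in NR and -0.019 in SP that did not pass. The BUB3 libraries of the 3 groups overlapped, while the 6 particle libraries of BUB1 lay above those of Ab. TTK is one of the genes that were low in Ab library 1, and without this library its log2 fold changes were 0.21 in NR and 0.28 in SP.

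The 7 kinetochore and centromere genes were mixed. In the NDC80 complex, SPC24 and SPC25 rose, SPC25 by 0.94 in NR and 0.89 in SP, while NUF2 fell by 0.28 in NR and by 0.23 in SP and NDC80 fell by 0.29 in SP alone. NUF2 had 45.4, 40.7 and 42.2 CPM in NR, 45.3, 45.9 and 41.8 CPM in SP and 44.1, 56.4 and 55.6 CPM in Ab. Its Ab library 1 lay among the particle libraries, and the 2 other Ab libraries lay above them. NDC80 had 72.1, 67.4 and 67.01 CPM in NR, 62.8, 66.3 and 64.4 CPM in SP and 66.6, 85.1 and 85.7 CPM in Ab, and in NR it had -0.20 (edgeR, adjusted p = 0.057). So the 2 subunits that face the centromere rose and the 2 that face the microtubule had values below 0 in both groups. CENPA, the centromeric histone, rose by 0.22 in NR and had 0.11 in SP (adjusted p = 0.00902 and 0.188 with edgeR). CENPE had 20.6, 11.5 and 13.7 CPM in NR, 19.2, 15.2 and 13.5 CPM in SP and 13.2, 19.3 and 21.8 CPM in Ab, and CENPF had 256, 192 and 212 CPM in NR, 271, 256 and 232 CPM in SP and 151, 232 and 255 CPM in Ab. The groups overlapped for both and neither passed, and in NR against Ab their 95% intervals were, with that of PRC1, the widest of the 47.

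Of the 8 kinesins and spindle genes, 6 rose and 1 fell in NR, and 5 rose and 1 fell in SP. TPX2, which recruits AURKA to the spindle, had the highest level per length of all 47 genes with 157, 153 and 107 RPKM in NR, SP and Ab, and rose by 0.55 in NR and 0.52 in SP. The spindle motor KIF11 (Eg5) rose by 0.53 in NR and 0.49 in SP, the chromokinesin KIF4A by 0.67 in NR and 0.66 in SP and HMMR and DLGAP5 by the values above. KIF2C (MCAK), the kinesin that takes microtubules apart at the centromere, had 160.2, 162 and 162 CPM in NR, 169, 155 and 169 CPM in SP and 188, 178 and 175 CPM in Ab. Its particle libraries lay below those of Ab, and its log2 fold change was -0.15 (SE 0.046) in NR and -0.12 (SE 0.050) in SP against Ab (edgeR, adjusted p = 0.00383 and 0.0271). ASPM, a spindle pole protein with one of the longest transcripts, did not pass, with -0.28 in NR and -0.034 in SP. It had 118, 88.8 and 105 CPM in NR, 134, 125 and 114 CPM in SP and 98.2, 133 and 151 CPM in Ab. Its Ab library 1 lay among the NR libraries and the other Ab libraries lay above them. Both values thus depend on Ab library 1, and without it the value in SP was -0.19. NUSAP1, a microtubule-bundling protein, rose in NR with 0.47 and had 0.18 in SP, but 86.8% of its exon bases are shared with another annotated gene so it is uncertain.

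Of the 4 anaphase genes, 3 rose. CDC20, the activator of the APC/C, had 155, 166 and 169 CPM in NR, 165, 163 and 165 CPM in SP and 108, 100.4 and 102 CPM in Ab. Its log2 fold change was 0.67 (SE 0.050) in NR and 0.68 (SE 0.049) in SP against Ab (edgeR, adjusted p = 1.2e-12 and 1.04e-12), and the particle libraries lay above those of Ab. UBE2C, the ubiquitin-conjugating enzyme that works with the APC/C, rose by 0.78 in NR and 0.80 in SP. With 121, 122 and 70.5 RPKM in NR, SP and Ab, UBE2C and CCNB1 (at 116, 120 and 72.3) were next in level to TPX2. ESPL1 (separase), the protease that PTTG1 holds in check, had 85.1, 92.6 and 98.8 CPM in NR, 97.6, 98.7 and 95.4 CPM in SP and 103, 92.9 and 96.95 CPM in Ab and did not pass, with -0.082 in NR and 0.0027 in SP. Its libraries overlapped between the groups, unlike those of PTTG1, and with the trend with GC content and length removed it passed as lower in NR with -0.16 (edgeR, adjusted p = 0.00267).

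Of the 5 cytokinesis genes, KIF20A and ANLN rose and 3 did not pass. KIF23 (MKLP1), the motor of the centralspindlin complex, had 96.7, 90.04 and 89.9 CPM in NR, 88.3, 97.1 and 93.3 CPM in SP and 89.4, 109.8 and 114 CPM in Ab. Its Ab library 1 lay at the level of the particle libraries and the other 2 above it, with log2 fold changes of -0.17 in NR and -0.16 in SP. ECT2, the exchange factor that switches RhoA on at the division plane, had 0.13 in NR and 0.14 in SP (adjusted p = 0.0771 and 0.0738 with edgeR). It had 123.5, 121.3 and 123.8 CPM in NR, 116, 127 and 127.3 CPM in SP and 97.8, 116.6 and 122.6 CPM in Ab. For ECT2, Ab library 1 lay below all particle libraries, and the other Ab libraries lay among them. PRC1, which bundles the central spindle, had only 9 to 18 counts a library. Other annotated genes cover 61.9% of its exon bases, and a readthrough gene over it held 118 to 251 counts, so nothing can be read from its log2 fold changes of 0.16 in NR and 0.39 in SP, which did not pass.

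TOP2A, the topoisomerase that untangles sister chromatids, had 361, 338 and 344 CPM in NR, 350.5, 373 and 358 CPM in SP and 174, 232 and 236 CPM in Ab. All particle libraries lay above Ab, with Ab library 1 the lowest, and its log2 fold change was 0.70 (SE 0.13) in NR and 0.76 (SE 0.13) in SP against Ab (edgeR, adjusted p = 0.00695 and 0.00326). MKI67 (Ki-67), the usual marker of proliferating cells, had 407, 426 and 432 CPM in NR, 453, 472 and 439 CPM in SP and 390.1, 433 and 436 CPM in Ab. NR and Ab overlapped, while SP lay above Ab by a small step. Its log2 fold change was 0.0098 in NR, which did not pass, and 0.12 in SP (adjusted p = 0.0219 with edgeR) and turned to -0.038 once the trend with GC content and length was removed, a setting chosen after the data were seen. TOP2A thus had 1.63-fold and 1.69-fold more in NR and SP than in Ab, while 2 of the 3 Ab libraries of MKI67 lay above all NR libraries and the other one below them.

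Some calls turned on a single library (edgeR's adjusted p in brackets). Without NR library 1, TTK (0.117) and CENPA (0.0514) no longer passed in NR, and without NR library 3, TTK (0.0589) and NUF2 (0.0581) did not, while ESPL1 then passed as lower (0.0497). NUF2 was also lost without NR library 2 (0.056) and CENPA without Ab library 2 (0.0854). In SP, leaving out library 1 lost CDC25C (0.0721), MKI67 (0.073), NDC80 (0.059) and NUF2 (0.0653), library 2 lost KIF2C (0.14) and MKI67 (0.182), and library 3 lost NUF2 (0.13). Without Ab library 2, FOXM1 (0.0562) and NUF2 (0.0857) were lost in SP, and CDC25B passed as lower in NR (0.0257). Without Ab library 3, NUF2 was lost in SP (0.0609) and ECT2 passed as higher in NR (0.00771) and SP (0.0122). Without Ab library 1, KIF23 passed as lower in NR (7.5e-06, log2 fold change -0.27) and SP (7.84e-05, -0.26), NDC80 passed as lower in NR (3.57e-06, -0.31), FOXM1 as higher in NR (0.00386), CENPA as higher in SP (0.0437, 0.17), and ASPM (0.0122, -0.19) and CENPE (0.0106, -0.35) as lower in SP, while KIF2C (0.0521) and MKI67 (0.0987, 0.068) were lost in SP. Among the genes that fell, WEE1 and PKMYT1 passed in both comparisons with any 1 library left out and KIF2C did in NR, while NUF2 did in neither.

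Other settings also turned calls. With the trend with GC content and length removed, AURKB passed as lower in NR (-0.15, edgeR, adjusted p = 0.0225) and SP (-0.25, 0.000512), CDC25B as lower in NR (-0.20, 7.52e-05) and SP (-0.13, 0.00745), KIF23 as lower in NR (-0.22, 0.00516) and SP (-0.22, 0.00377), NDC80 as lower in NR (-0.23, 0.000781), and ECT2 as higher in NR (0.18, 0.000557) and SP (0.16, 0.00557). CENPA was then lost in NR (0.051, 0.492), and FOXM1 (0.080, 0.12) and CDC25C (0.16, 0.0633) were lost in SP. KIF2C was lost in SP with DESeq2 (adjusted p = 0.0677) and without the filter on low counts (edgeR, 0.0577). MKI67 was lost in SP with at least 10 counts in every library (0.058), where CDC25B passed as lower in NR (0.0156). With all 9 libraries in one fit, CDC25B (0.0376), NDC80 (0.019) and KIF23 (0.0319) passed as lower in NR and KIF23 in SP (0.0375). Without the filter, NDC80 (0.000839) and KIF23 (0.00192) passed as lower and ECT2 (0.043) as higher in NR, and KIF23 (0.021) as lower and ECT2 (0.0187) as higher in SP.

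NR was then compared with SP directly, which asks whether these genes differed between the rods and the spheres that carry the same antibody. By the study's methods the rods and spheres also differed in size and supplier, which this comparison does not separate from shape. No gene of the 47 passed, beside 0.443% of all 14903 genes tested, 66 in all. The smallest adjusted p of the 47 was 0.148 with edgeR, and with DESeq2 none had an adjusted p of at most 0.05 either. Without the filter on low counts 1 gene passed, ASPM (-0.25, adjusted p = 0.0135 with edgeR). An unadjusted p under 0.05 was reached by 7 genes (14.9%), beside 12.9% of all genes. The libraries of the 2 groups did not overlap for 10 genes, 5 above and 5 below in NR, which is 21.3%, beside 17.8% of all genes. The median log2 fold change was 0.0074, with 24 genes above 0 and 23 below, from -0.25 to 0.29. For 44 of the 47 genes the whole 95% interval of the difference lay within 1.5-fold in either direction, and the exceptions were PRC1, CENPE and NUSAP1, which had few counts or differed between libraries of one group.

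**Figure D4:**
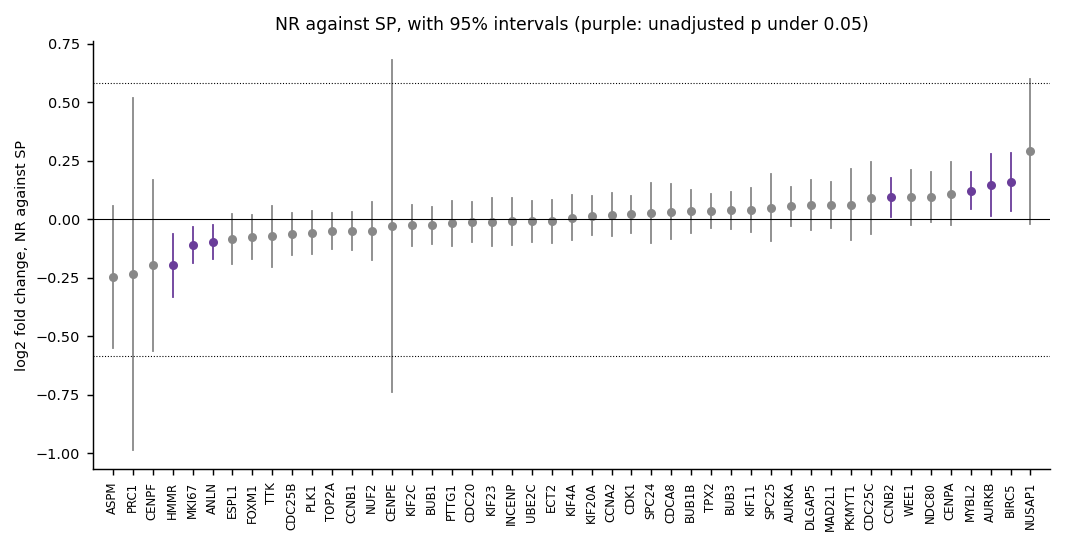
Log2 fold change of NR against SP (vertical axis) for the 47 genes in order of their value, with 95% intervals from edgeR over 3 libraries a group. Purple marks the 7 genes with an unadjusted p under 0.05, dotted lines mark 1.5-fold, and the intervals of PRC1, CENPE and NUSAP1 cross them.

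The 8 genes with the smallest p in this comparison were MYBL2, HMMR, MKI67, ANLN, BIRC5, CCNB2, AURKB and NUSAP1. MYBL2 was higher in all 3 NR libraries than in any SP library, with a log2 difference of 0.12 (SE 0.039) with an unadjusted p of 0.00397 and an adjusted p of 0.148 with edgeR. BIRC5 had 39.9, 41.8 and 41.9 CPM in NR, 35.4, 37.8 and 36.9 CPM in SP and 30.3, 25.6 and 28.99 CPM in Ab, NR above SP with no overlap, and a difference of 0.16 (SE 0.060) with an unadjusted p of 0.0128 and an adjusted p of 0.233 with edgeR. CCNB2 had 145, 147 and 151 CPM in NR, 138, 136 and 141 CPM in SP and 117, 115 and 117 CPM in Ab, again with NR above SP, and a difference of 0.093 (SE 0.041) with an unadjusted p of 0.0315 and an adjusted p of 0.327 with edgeR. AURKB overlapped through SP library 3 and had a difference of 0.15 (SE 0.065) with an unadjusted p of 0.0319 and an adjusted p of 0.327 with edgeR.

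HMMR had 43.8, 36.95 and 41.8 CPM in NR, 50.2, 46.8 and 44.1 CPM in SP and 18.8, 22.5 and 23.4 CPM in Ab. Its NR libraries lay below those of SP, and the difference was -0.20 (SE 0.065) with an unadjusted p of 0.00553 and an adjusted p of 0.172 with edgeR. For MKI67 the NR libraries also lay below those of SP, and the difference was -0.11 (SE 0.038) with an unadjusted p of 0.00674 and an adjusted p of 0.187 with edgeR. ANLN also had all NR libraries below those of SP, and its difference was -0.096 (SE 0.035) with an unadjusted p of 0.0111 and an adjusted p of 0.221 with edgeR. NUSAP1 had 6.19, 5.31 and 6.12 CPM in NR, 5.04, 5.002 and 4.4 CPM in SP and 3.8, 4.45 and 4.51 CPM in Ab, with NR above SP, and its difference was 0.29 (SE 0.15) with an unadjusted p of 0.0646 and an adjusted p of 0.422 with edgeR. The difference of NUSAP1 was the largest of the 8 in size, at 1.22-fold. Without NR library 1, the long genes ASPM (-0.36, SE 0.076, adjusted p = 0.0468 with edgeR) and CENPF (-0.33, SE 0.064, adjusted p = 0.04) passed as lower in NR. With all 6 libraries CENPF did not pass, and ASPM did so without the filter on low counts, as given above, and not with it.

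The rest of the cell cycle was measured with 154 other genes in 9 lists, of which 151 were tested. Together, 71 rose and 47 fell in NR against Ab, and 70 rose and 46 fell in SP, with median log2 fold changes of 0.12 and 0.11. These are 47% and 31.1% of the 151 in NR and 46.4% and 30.5% in SP, beside 36.4% higher and 36.4% lower of all genes in NR and 36.4% and 36.6% in SP, and the counts of each list below are to be read against the same shares. In NR against SP none of the 151 passed, and the smallest adjusted p was 0.0536 with edgeR. An unadjusted p under 0.05 was reached by 35 (23.2%), beside 12.9% of all genes. With DESeq2 ANAPC1 passed (adjusted p = 0.0283), without the filter on low counts ANAPC1 (edgeR, adjusted p = 0.00892), CENPU (0.0111), DEPDC1 (0.028) and NIPBL (0.0233) did, and without NR library 1 NIPBL did (0.0317).

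**Figure D5:**
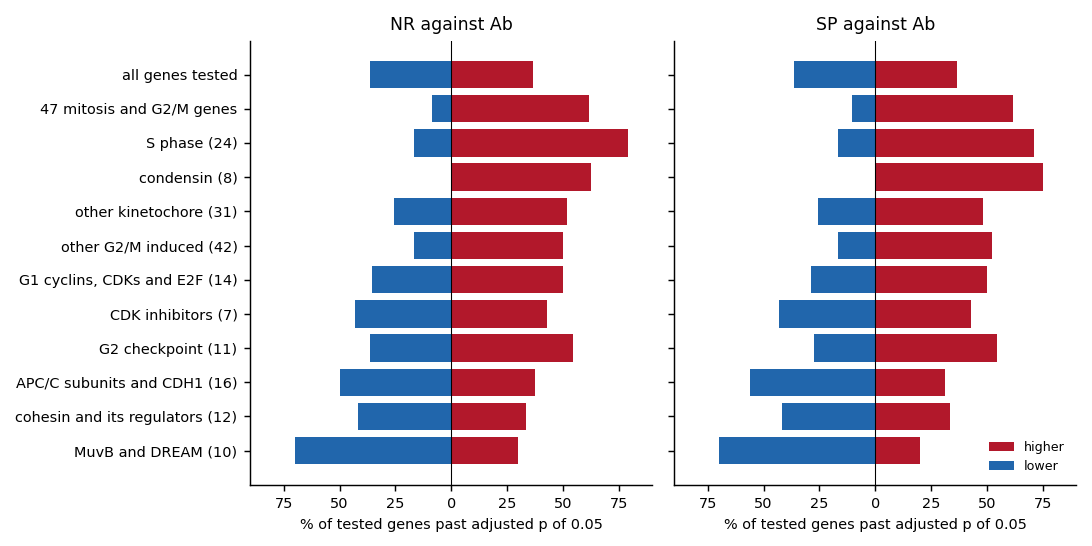
Share of tested genes (horizontal axis, %) that passed as higher (red, right) or lower (blue, left) in NR against Ab and SP against Ab, for all genes, the 47 mitosis and G2/M genes and the other cell cycle lists, with the number tested in brackets. The 47 genes reach 61.7% higher and 8.51% lower in NR, beside 36.4% and 36.4% for all genes.

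Of the 42 other genes known to be induced in G2 and M, 21 rose and 7 fell in NR, and 22 and 7 in SP. LMNB1, the lamin B1 of the nuclear envelope, rose by 0.90 in NR and 0.81 in SP, PIMREG, a mitotic regulator, by 1.85 in NR and 1.63 in SP, and FAM83D, a spindle protein, by 0.84 in NR and 0.89 in SP. KIFC1, a minus-end kinesin, had 16.1 CPM in NR library 2 and 0.921 to 2.24 CPM in the 8 others, and did not pass. DEPDC1 had the smallest p of this list in NR against SP, with -0.22 (adjusted p = 0.076 with edgeR). Of the 31 other kinetochore genes, 16 rose and 8 fell in NR, and 15 and 8 in SP. ZWINT, the partner of the KNL1 scaffold, rose by 1.45 in NR and 1.33 in SP and CENPI, of the inner kinetochore, by 1.46 in NR and 1.43 in SP, while MIS12, which joins inner and outer kinetochore, fell, with -1.12 in NR and -1.30 in SP. CENPU, also of the inner kinetochore, had 0.30 in NR against SP (adjusted p = 0.0536 with edgeR).

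Of the 8 condensin genes, whose products fold mitotic chromosomes, 5 rose in NR and 6 in SP and none fell. NCAPG2, NCAPD2 and NCAPH rose by 0.92 in NR and 0.85 in SP, by 0.86 in NR and 0.85 in SP and by 0.64 in NR and 0.58 in SP. SMC2, a core condensin subunit, had -0.14 in NR against SP (adjusted p = 0.259 with edgeR). Of the 12 cohesin genes, 4 rose (33.3%) and 5 fell (41.7%) in each comparison, near the shares of all genes. RAD21, the cohesin subunit that separase cuts, rose by 0.58 in NR and 0.58 in SP and PDS5B by 0.60 in NR and 0.58 in SP, while WAPL, which releases cohesin from chromatin, fell, with -0.63 in NR and -0.58 in SP. NIPBL, the cohesin loader, had -0.15 in NR against SP (adjusted p = 0.409 with edgeR). Of the 16 genes of the APC/C and its regulators, 6 rose and 8 fell in NR, and 5 and 9 in SP. Those that rose include FBXO5 (EMI1), which inhibits the APC/C, with 0.42 in NR and 0.31 in SP, named here because it is neither a subunit nor an activator. ANAPC5 rose by 0.64 in NR and 0.63 in SP, while CDC16 and the activator FZR1 (CDH1), which takes over from CDC20 late in mitosis, fell, with -0.38 in NR and -0.42 in SP and -0.51 in NR and -0.45 in SP. ANAPC1 had -0.17 in NR against SP (adjusted p = 0.0649 with edgeR).

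Of the 11 MuvB and DREAM genes, 10 were tested, of which 3 rose and 7 fell in NR and 2 rose and 7 fell in SP. E2F4, the main E2F of the repressing DREAM complex, fell, with -0.92 in NR and -0.91 in SP, while RBL2 (p130), its pocket protein, rose by 0.80 in NR and 0.80 in SP and RBBP4 by 0.59 in NR and 0.49 in SP. Among 7 CDK inhibitors, 3 rose and 3 fell in each. CDKN1A (p21) and CDKN1B (p27), which restrain CDK2 and CDK1, fell, with -1.15 in NR and -0.997 in SP and -0.91 in NR and -0.93 in SP, while CDKN2C (p18), which restrains CDK4 and CDK6, rose by 1.51 in NR and 1.41 in SP. CDKN2B had -0.20 in NR against SP (adjusted p = 0.146 with edgeR). Of the 11 G2 checkpoint genes tested, 6 rose in each comparison, 4 fell in NR and 3 in SP. GADD45A and GADD45B, stress-induced genes that restrain CDK1, had the largest falls of these lists. GADD45A had 21.9, 21.8 and 22.7 CPM in NR, 29.9, 25.4 and 23.8 CPM in SP and 118, 125 and 119 CPM in Ab, and on the log2 scale it fell, with -2.45 in NR and -2.19 in SP. GADD45B fell, with -1.99 in NR and -1.79 in SP, and so did the stress kinase PLK3, with -1.57 in NR and -1.29 in SP. GADD45A also had the smallest p of its list in NR against SP, where the difference was -0.26 (adjusted p = 0.149 with edgeR).

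Of the 14 G1 genes tested, 7 rose in each comparison, 5 fell in NR and 4 in SP. CCND3 (cyclin D3) rose by 1.73 in NR and 1.81 in SP, CCNE1 (cyclin E1) by 1.32 in NR and 1.22 in SP and CDK2, the partner of cyclin E, by 0.90 in NR and 0.78 in SP. CCND1 (cyclin D1) had -0.10 in NR against SP (adjusted p = 0.211 with edgeR). Of 24 S phase genes, set beside as the neighbouring phase, 19 rose and 4 fell in NR, and 17 and 4 in SP. In NR against SP, 22 of the 24 had values above 0 and 2 below, with a median of 0.086. An unadjusted p under 0.05 with edgeR was reached by 11 of the 24, beside 12.9% of all genes. For 11 (45.8%) all NR libraries lay above all SP libraries and for 0 below, beside 17.8% of all genes without overlap in either direction. RRM1, which helps supply nucleotides, rose by 1.30 in NR and 1.26 in SP, and UNG, which removes uracil from DNA, by 0.91 in NR and 0.80 in SP. PCNA, the sliding clamp of replication, had 336, 330.1 and 325 CPM in NR, 288, 293 and 302 CPM in SP and 199.9, 209 and 202 CPM in Ab. Its 3 NR libraries lay above the 3 SP libraries and both above Ab, and it was the only gene of all cell cycle lists to pass in NR against SP, with 0.17 (adjusted p = 0.0353 with edgeR). The call was lost with all 9 libraries in one fit (adjusted p = 0.0693), with the replicate block (0.0791), with the trend with GC content and length removed (0.136) and in 5 of the 6 fits that left out a library (0.0506 to 0.142).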

How the data were processed

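Poly-A RNA of 9 SNU5 libraries was sequenced in pairs, and the authors aligned the reads with HISAT2 (v2.1.0) and deposited raw read counts per Ensembl gene ID, 1 file per group. The genome build is given as hg19 in the study's reporting summary and as mm9 in the submitters' processing notes, the counter is named differently in 2 places, and the annotation release and the use of strand are not given in the sources used here. Human Ensembl IDs fill the files. Symbols were taken from GENCODE release 44 lifted to GRCh37, which named 59858 of 60880 IDs, and the 1022 others held at most 0.115% of the counts of a library. The 47 genes and all other gene lists were chosen with earlier results of these data known.

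Counts were scaled by TMM and tested in R 4.3.3 with edgeR 4.0.16 (robust quasi-likelihood test, 6 libraries per comparison, filterByExpr with a minimum count of 10 and a minimum total of 15, Benjamini-Hochberg adjustment over all genes tested). Passing meant an adjusted p of at most 0.05, and calling meant in addition a 2-fold change. No GC or length correction was part of this test. Alternatives were DESeq2 1.42.0, RLE size factors, no filter, a minimum of 10 counts in every library, one fit of all 9 libraries, a block for the replicate number, leaving out each library, a 1.5-fold minimum and, chosen after the data were seen, removal of the trend with GC content and length (loess, span 0.3). The steps were tested on simulated data in which 200 genes changed 2-fold. Smaller changes and single libraries that stand apart were not simulated. Library pairs of a group differed by more than sampling noise and each library was counted as 1 sample. Depth was 13863155 to 26318227 counts, and floors and intervals of counts cover counting error only.

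Genes named with values were 7 fixed genes, the 8 of smallest p in NR against SP, up to 5 that rose and 5 that fell most among those past the test in both comparisons with Ab (4 fell), and in each other list the 3 of smallest p in NR against Ab and the 1 in NR against SP. The remaining genes of the 47 were given because all 47 were accounted for, and KIFC1 was named after its values were seen. One gene that this rule names is not reported here.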

Additional observations from a re-analysis of the deposited data

Results flagged for a closer look

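PCNA, the sliding clamp of DNA replication, was the single gene of the mitosis, cell cycle and S phase lists that differed between NR and SP past the test, with a log2 fold change of 0.1652 (adjusted p = 0.0353 with edgeR, higher in all 3 NR libraries than in any SP library). It no longer passed with all 9 libraries in one fit (adjusted p = 0.0693), with the replicate block (0.0791), with the GC and length trend removed (0.136), or when NR library 1 (0.0506), NR library 2 (0.142), NR library 3 (0.0828), SP library 1 (0.124) or SP library 2 (0.124) was left out.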

How the results depend on the processing

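The counts of mitosis and G2/M genes that rose against Ab stayed within 27 to 30 in both comparisons under every alternative run. In NR against SP, 1 of the 47 genes passed without the filter on low counts, and 0 to 2 passed with a library left out, 2 of them without NR library 1. The genes that fell against Ab numbered 4 in NR and 7 with all 9 libraries in one fit, and 5 in SP and 3 to 7 with a library left out (3 without SP library 1, 7 without Ab library 1). With the GC and length trend removed, 9 fell in each comparison, with medians (log2 fold change) of 0.29 in NR and 0.31 in SP. Leaving out a library gave medians of 0.32 to 0.41 in SP (0.315 without Ab library 1, 0.319 without Ab library 2, 0.408 without SP library 1). With a 1.5-fold minimum, 18 were called higher in NR and 17 in SP. The causes of these shifts were not tested.

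Some values near 0 turned sign, and 2 of the turned values passed the test. In NR against Ab, AURKB was -0.049 to 0.068 with a library left out (-0.049 without NR library 1) and -0.15 (adjusted p = 0.0225 with edgeR) with the trend removed, BUB3 -0.0055 with 10 counts in every library and -0.0026 (without NR library 3) to 0.023 with a library left out, CENPF -0.14 (without Ab library 1) to 0.198 with a library left out and -0.084 without NR library 1, and MKI67 -0.014 with 10 counts in every library, -0.0028, -0.012 and -0.045 without NR library 2, NR library 3 and Ab library 1, and -0.071 with the trend removed. In SP against Ab, ASPM was -0.19 (without Ab library 1) to 0.098 (without Ab library 3) with a library left out and 0.033 without SP library 3, and with the trend removed CDCA8 was -0.013, CENPA -0.011, MKI67 -0.038 and ESPL1 -0.11 (adjusted p = 0.0296 with edgeR). ESPL1 was also -0.013 with 10 counts in every library, -0.0049 with all 9 libraries, and -0.0067, -0.017, -0.036 and -0.0069 without SP library 1, SP library 2, Ab library 2 and Ab library 3, in a range up to 0.039.

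Across groups, libraries of the same number had deviations with r from -0.116 to 0.06, and those of different number had r from -0.087 to 0.152. No pairing by number was thus seen. These values cannot show whether libraries of the same number were prepared together. With the replicate block, the same 0 genes of the 47 passed in NR against SP, 29 rose and 4 fell in NR against Ab, and 30 rose and 6 fell in SP against Ab, where ECT2 (0.15, adjusted p = 0.013 with edgeR) and KIF23 (-0.15, adjusted p = 0.0175) were gained, and PCNA was lost in NR against SP (adjusted p = 0.0791). It changed no other call among the genes named. With a library left out, 1 arm held 2 libraries. PRC1 and NUSAP1 were limited by low counts and shared exons, and WEE1, PKMYT1 and the 5 genes called higher in both comparisons kept their direction and passed under every alternative run.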
